A study of Mus musculus with 6 samples.

Results

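The unirradiated intestinal crypt transcriptome is described here from the 2 Control libraries, replicates 2 and 3, of the 6 libraries in the series. They were chosen by their label as crypts of C57BL/6 mice that received no abdominal irradiation. The other 4 libraries were AIR replicates 1 and 3, from crypts taken 3 days after abdominal irradiation, and AIR_MPLA replicates 1 and 3, from crypts of mice irradiated likewise and also treated with MPLA. MPLA is monophosphoryl lipid A, an agonist of Toll-like receptor 4. All 6 libraries came from C57BL/6 crypts and total RNA, and no age, sex or genotype was given in the sources used here. The labels do not say that replicates came from separate mice, so every p-value measures the spread between these libraries, which may be technical. Values are FPKM (fragments scaled to transcript length and to the mapped fragments of the library) for 21878 genes. Levels are set side by side between genes on this scale, with the limits given below for near-copy genes, reads matching several loci and GC content.

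Crypts of Lieberkühn are the pockets at the base of the intestinal villi. Crypt base columnar stem cells, marked by Lgr5 and Olfm4, divide there between Paneth cells, which secrete alpha-defensins, lysozyme and other antimicrobial proteins into the lumen. Their offspring become absorptive enterocytes, mucus-making goblet cells, hormone-making enteroendocrine cells or chemosensory tuft cells.

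Control replicate 2 stood apart from the other libraries because it was deposited with 2 sets of values. Within a tolerance of 1e-06, the single-sample file and the series-table column shared 2 values above 0, while the other 5 libraries matched the table at all 21878 genes. The files do not show which set is the library labelled Control replicate 2, so every replicate 2 value below may belong to another sample, and the table column is headed by an abbreviation that was matched to Control by its replicate number. Summed FPKM was 381669 in the single-sample file and 503961 in the table, and it was 492247 in Control replicate 3. Over 10415 genes (genes do not count as replicates) the single-sample file had a Pearson correlation of 0.972 with Control replicate 3 on the log2(FPKM + 1) scale, and the table column had 0.997. The AIR libraries had 0.982 with each other and the AIR_MPLA libraries 0.994. With Control replicate 3, AIR_MPLA replicates 1 and 3 had 0.974 and 0.971, much like the single-sample file. With AIR replicates 1 and 3 the single-sample file had 0.930 and 0.950, and Control replicate 3 had 0.915 and 0.923. The single-sample file is used below, and the table column is given beside it for the main results.

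A small number of genes made up much of the signal at rest. The 10 highest genes took 9.55% of summed FPKM in Control replicate 2 and 16.4% in Control replicate 3, and the 100 highest took 34.1% and 42.4%. In all, 9816 genes reached 1 FPKM in both libraries. Only 52 genes in replicate 2 and 78 in replicate 3 reached 1000 FPKM. In replicate 2, 271 genes held the upper 50% of summed FPKM, and in replicate 3, 160 genes did. The 100 highest genes of the 2 libraries had 85 in common. With the table column for replicate 2 the share of the 10 highest was 18.7% and the 50% mark was reached at 143 genes.

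**Figure D1:**
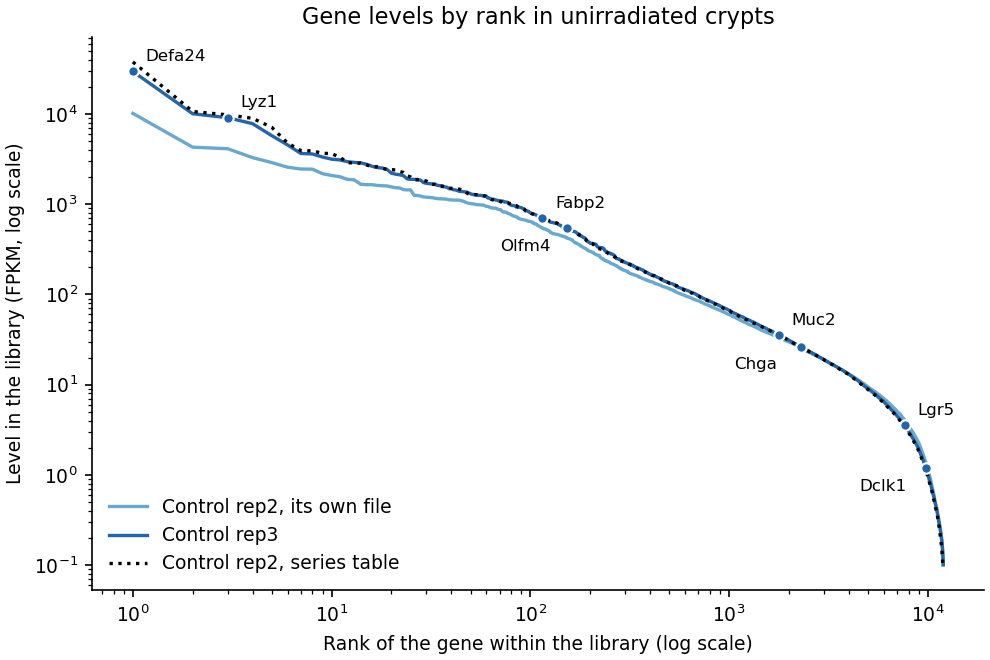
Level in FPKM (vertical axis, log scale) against rank of the gene within the library (horizontal axis, log scale) for Control replicate 2 from its own file, Control replicate 3 and Control replicate 2 from the series table; points mark 8 cell markers in replicate 3. The curves lie farthest apart at rank 1, where Defa24 had 10144 FPKM in replicate 2 and 29539 FPKM in replicate 3.

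By function, with each gene counted in 1 list, the 100 highest genes by mean Control FPKM held 39 genes of cytosolic ribosomal proteins, 11 of the nuclear-encoded respiratory chain, 10 alpha-defensins and 5 other Paneth cell genes. Another 8 belonged to the list of antimicrobial lectins and mucosal defence, and 6 to the absorptive enterocyte list. None belonged to the stem cell list. The 39 ribosomal protein genes took 12.2% of FPKM in replicate 2 and 11.4% in replicate 3. The 10 alpha-defensins took 5.55% and 11.7% (14.3% in the table column for replicate 2), and so moved between the libraries far more than the ribosomal genes. Among Gene Ontology terms attached to genes in the deposited table, translation (262 genes) held 16.4% and 14.7% of FPKM. Defense response to Gram-negative bacterium (89 genes) held 9.37% and 18.4%, although these genes were 0.407% of all genes.

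Alpha-defensins were the most abundant secretory transcripts. Defa24, a Paneth cell defensin (gene ID 503491, GRCm38.p6 chromosome 8, 21734494 to 21735471), was the highest gene in both Control libraries, with 10144 FPKM in replicate 2 and 29539 FPKM in replicate 3. Alone it took 2.66% and 6.00% of all FPKM. The table column for replicate 2 had Defa24 at 37711 FPKM, again the highest gene. Defa30 followed with 4118 and 7810 FPKM, AY761184 with 2014 and 5745 FPKM, and Gm14851 with 1181 and 2959 FPKM. Of the 28 alpha-defensin genes in the files, 24 reached 1 FPKM in both libraries and 17 reached 100 FPKM. Only Defa25 was listed at 0 in both. Summed over the 28 genes, alpha-defensins took 6.04% of FPKM in replicate 2 and 13.0% in replicate 3, or 16.2% with the table column for replicate 2. Fewer cells of a type and less RNA per cell cannot be told apart in such bulk samples.

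These genes are near copies of each other. The labels do not say how reads were shared out between copies, and the level of each alpha-defensin gene is therefore uncertain. Among the 28 coding sequences of 276 to 348 bases (GENCODE annotation of GRCm38), the median identity over 378 pairs was 82.3%, and all 28 had a partner at 95% or more. The 4 highest fall into 2 pairs, of which the last 90 coding bases are shown because they differ so little; capitals mark the bases that differ within the pair. Defa24 and Defa30 (chr8:21734537-21735374 and chr8:21134663-21135500, plus strand, coding start to end) were 98.6% identical over the whole coding sequence. AY761184 and Gm14851 (chr8:21702631-21703602 and chr8:21095077-21096050, minus strand) were 96.8% identical to each other, and 64.6% and 65.7% identical to Defa24.
Defa24: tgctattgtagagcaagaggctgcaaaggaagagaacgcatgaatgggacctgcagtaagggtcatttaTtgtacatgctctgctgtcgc
Defa30: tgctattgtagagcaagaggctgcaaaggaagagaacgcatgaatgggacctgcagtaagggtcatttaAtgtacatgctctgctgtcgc
AY761184: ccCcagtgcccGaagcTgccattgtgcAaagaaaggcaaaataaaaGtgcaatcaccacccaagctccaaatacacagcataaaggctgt
Gm14851: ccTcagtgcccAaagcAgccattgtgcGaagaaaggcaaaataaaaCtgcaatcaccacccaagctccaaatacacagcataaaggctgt
In the stretch shown, 1 of 90 bases differed between Defa24 and Defa30, and 5 of 90 between AY761184 and Gm14851.

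Other Paneth cell products stood close behind the defensins. Lyz1, the Paneth cell lysozyme (gene ID 17110, chromosome 10, 117287795 to 117292868), had 2890 FPKM in Control replicate 2 and 9079 FPKM in replicate 3, ranks 5 and 3, and 10644 FPKM in the table column for replicate 2. Spink4, a secreted protease inhibitor of Paneth and goblet cells, had 1646 and 3330 FPKM. Itln1, an intelectin that binds microbial sugars, had 473 and 2204 FPKM, and 2720 FPKM in the table column. Within a library, Defa24 and Lyz1 kept a near constant proportion: Defa24 was 3.51 times Lyz1 in replicate 2 and 3.25 times in replicate 3, while each gene differed about 3-fold between the libraries. Of 16 Paneth genes outside the defensins, 12 reached 1 FPKM in both Control libraries. Members at low level were Wnt3, the niche Wnt ligand (0.807 and 2.11 FPKM), and Egf (0.165 and 0.193 FPKM).

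Lectins and mucosal defence proteins made by enterocytes and secretory cells formed another abundant group, with 4.02% of FPKM in Control replicate 2 and 5.77% in replicate 3. Reg3b, a C-type lectin that targets bacteria (gene ID 18489, chromosome 6, 78370885 to 78373466), was the gene of rank 2 in both libraries, at 4282 and 10050 FPKM. In the table column for replicate 2 it was at 8952 FPKM, rank 4. Its neighbour in function, Reg3g, had 1886 and 4544 FPKM, so that Reg3b was 2.27 and 2.21 times Reg3g. In the irradiated crypts Reg3b was the highest gene, at 15441 and 19016 FPKM in AIR libraries and 20592 and 17297 FPKM in AIR_MPLA libraries. Lgals2, a galectin, had 2453 and 3602 FPKM, and Lypd8, which keeps flagellated bacteria from the epithelium, had 1614 and 2118 FPKM. Pigr, the receptor that carries immunoglobulin A across the epithelium, had 1112 FPKM in replicate 2 and 921 FPKM in replicate 3. Of the 21 members of this list 18 reached 1 FPKM in both libraries. Low members included Lcn2 (1.51 and 3.56 FPKM), Nos2 (1.96 and 3.01 FPKM) and Saa1 (0.0540 and 0.742 FPKM).

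Goblet cell transcripts spanned a wide range. Tff3, the trefoil peptide of mucus, had 1520 and 2627 FPKM in Control replicates 2 and 3, Zg16, a lectin of the mucus layer, had 1233 and 1881 FPKM, and Fcgbp, a mucus protein, had 287 and 367 FPKM. Muc2, the gel-forming mucin (gene ID 17831, chromosome 7, 141690340 to 141754691), had 43.2 FPKM in replicate 2 and 35.6 FPKM in replicate 3, ranks 1362 and 1776. Per length, the mucin transcript was thus far below the small secreted peptides of the same cells. All 17 goblet genes reached 1 FPKM in both libraries. The secretory lineage factors were low, with Atoh1 at 7.40 and 9.24 FPKM and Spdef at 3.60 and 6.07 FPKM.

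Translation and energy genes were the broadest part of the resting profile. All 80 cytosolic ribosomal protein genes reached 1 FPKM in both Control libraries, 76 reached 100 FPKM, and together they took 16.6% of FPKM in replicate 2 and 15.3% in replicate 3. By the Control mean Rpl41 led them with 2444 and 3648 FPKM, followed by Rps29 with 2572 and 2767 FPKM, which was the higher of the pair in replicate 2, and Rplp1 with 2178 and 2905 FPKM. At the low end were Rpl21 with 60.5 and 52.6 FPKM and Rps15a with 79.7 and 93.5 FPKM. Ribosomal protein genes have many processed pseudogenes, and how reads matching several loci were treated is not given in the sources used here. Eef1a1, the elongation factor that brings aminoacyl-tRNA to the ribosome, had 3283 and 3097 FPKM. The 50 respiratory chain genes took 5.09% and 5.03% of FPKM, with Atp5b, a subunit of the ATP synthase, at 1249 and 1673 FPKM.

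Absorptive enterocyte transcripts were present at high level in these crypt preparations. All 30 members of the list reached 1 FPKM in both Control libraries and 16 reached 100 FPKM, for 2.82% and 2.86% of FPKM. Apoa1, the main protein of high-density lipoprotein, had 1554 and 2425 FPKM in replicates 2 and 3, and Fabp1, a fatty acid carrier, had 1602 and 1482 FPKM. Fabp2, the intestinal fatty acid binding protein (gene ID 14079, chromosome 3, 122895072 to 122899506), had 980 FPKM and 701 FPKM, ranks 56 and 115. Brush border enzymes were lower, with Sis, sucrase-isomaltase, at 250 and 115 FPKM and Lct, lactase, at 27.2 and 36.4 FPKM. Differentiated cells of the upper crypt and cells of attached villi cannot be told apart in these bulk libraries.

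The labels name the intestine without a segment, and segment markers were read for that reason. Transcripts of the proximal small intestine were present: all 13 reached 1 FPKM in both Control libraries, among them Apoa4, an apolipoprotein of chylomicrons (518 and 1265 FPKM), Ada, adenosine deaminase (53.0 and 214 FPKM), and Gata4, a factor of the proximal intestine (49.7 and 61.0 FPKM). Of 7 ileal genes 4 reached 1 FPKM in both libraries, namely Slc51a (39.7 and 59.8 FPKM), Slc51b (22.5 and 39.1 FPKM), Amn (25.6 and 33.5 FPKM) and Cubn (1.55 and 1.01 FPKM). The others were close to 0, with Fabp6, the ileal bile acid binding protein, at 0.287 and 0.459 FPKM, Slc10a2, the bile acid importer, at 0.0510 and 0.0428 FPKM, and Fgf15 listed at 0 in both. Of 10 colon genes, Car4 had 114 and 80.0 FPKM, while Hoxa13, Hoxb13 and Hoxd13, which mark the distal gut, were listed at 0.

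Stem cell transcripts were detected across the whole list but at modest levels, apart from Olfm4. All 19 genes of the crypt base columnar list reached 1 FPKM in both Control libraries, with a median of 9.28 FPKM in replicate 2 and 8.71 FPKM in replicate 3. Olfm4, a secreted glycoprotein of these cells (gene ID 380924, chromosome 14, 80000302 to 80023141), had 723 and 542 FPKM and was the one member above 100 FPKM. Lgr5, the R-spondin receptor (gene ID 14160, chromosome 10, 115450314 to 115587780), had 4.22 and 3.56 FPKM, ranks 7546 and 7643. Olfm4 was therefore 171 times Lgr5 in replicate 2 and 152 times in replicate 3. Between those levels stood Slc12a2, an ion cotransporter (82.4 and 48.4 FPKM), Cdca7 (45.7 and 56.4 FPKM), Smoc2 (43.9 and 45.7 FPKM) and Axin2, a Wnt feedback gene (13.3 and 16.2 FPKM). The list took 0.271% of FPKM in replicate 2 and 0.170% in replicate 3, and Olfm4 alone took 0.190% and 0.110%.

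Dividing cells were visible beside the stem cell genes. All 30 proliferation genes reached 1 FPKM in both Control libraries. H2afz, a histone variant, had 312 and 372 FPKM, Stmn1, a tubulin-binding protein of dividing cells, had 152 and 165 FPKM, and Pcna, the replication clamp, had 133 and 138 FPKM. Mki67, the proliferation antigen Ki-67, was at 34.6 FPKM in replicate 2 and 13.6 FPKM in replicate 3. The replication helicase genes Mcm2 to Mcm7 lay between 15.9 FPKM, for Mcm4 in replicate 3, and 41.6 FPKM, for Mcm5 in replicate 3.

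Transcription factors of intestinal identity were led by Hnf4a, a nuclear receptor of enterocyte genes, at 175 and 202 FPKM in Control replicates 2 and 3. Elf3 had 117 and 194 FPKM, the caudal factor Cdx1 had 136 and 160 FPKM, and Klf5, a factor of dividing crypt cells, had 118 and 91.6 FPKM. Of 26 such genes 25 reached 1 FPKM in both libraries. The exception was Prdm1, known from the suckling mouse gut, at 0.331 and 0.372 FPKM. Sox9, a factor of stem and Paneth cells, was lower at 9.28 and 10.1 FPKM.

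Enteroendocrine genes had a median of 5.18 FPKM in Control replicate 2 and 4.85 FPKM in replicate 3, and tuft cell genes had 1.38 and 1.23 FPKM. Chga, the granin of hormone granules (gene ID 12652, chromosome 12, 102554941 to 102565027), had 28.9 FPKM in Control replicate 2 and 26.5 FPKM in replicate 3, ranks 2067 and 2289. Dclk1, the tuft cell kinase (gene ID 13175, chromosome 3, 55242303 to 55539068), had 1.32 and 1.19 FPKM, ranks 9838 and 9736. Chga was 21.9 and 22.3 times Dclk1. Hormone transcripts included Gip at 46.0 and 55.9 FPKM, Sst (somatostatin) at 37.1 and 57.9 FPKM, and Cck at 11.1 and 14.6 FPKM, while Pyy, a hormone of the distal gut, was at 0.141 and 1.43 FPKM. Tuft cell genes stayed under 10 FPKM throughout: Trpm5, a taste channel, had 2.31 and 2.53 FPKM, and Alox5ap, a leukotriene synthesis protein, had 4.76 and 6.55 FPKM. Of 15 tuft genes 10 reached 1 FPKM in both libraries, and of 21 enteroendocrine genes 15 did.

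The order of the 8 markers in both Control libraries was Defa24, Lyz1, Fabp2, Olfm4, Muc2, Chga, Lgr5 and Dclk1. Defa24 and Lyz1 were kept in that order in each library, but the level of Lyz1 in replicate 3 lay close to that of Defa24 in replicate 2. For Fabp2 and Olfm4 the ranges of the 2 libraries overlapped (701 to 980 FPKM and 542 to 723 FPKM). Within a library Fabp2 was 1.35 times Olfm4 in replicate 2, 1.29 times in replicate 3 and 1.29 times in the table column. The other neighbours had ranges apart from each other. The same order held with the table column for replicate 2, where Lgr5 was at 3.12 FPKM and Dclk1 at 1.04 FPKM.

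**Figure D2:**
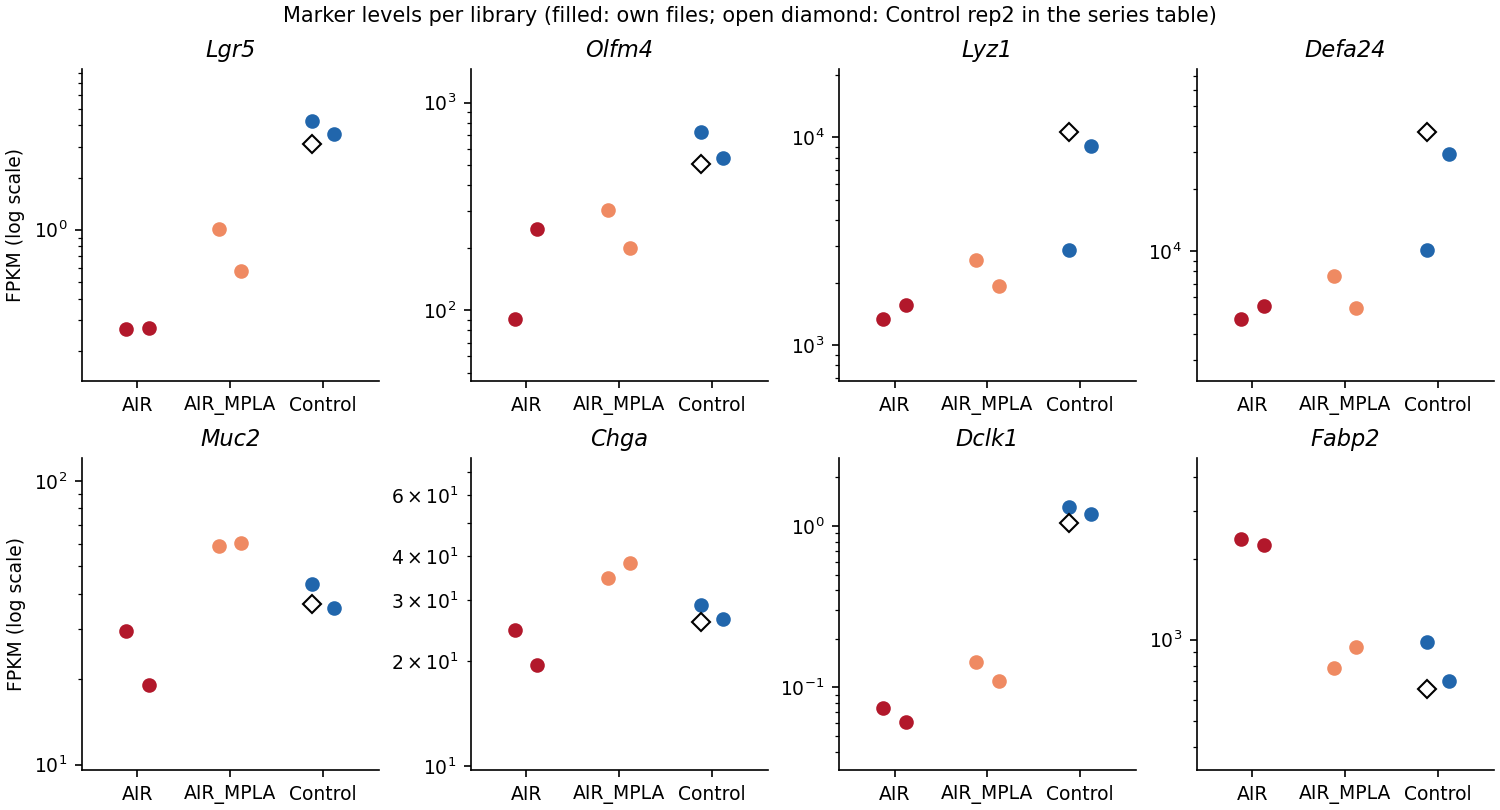
FPKM (vertical axis, log scale, own range in each panel) of 8 cell markers in AIR, AIR_MPLA and Control crypts; each filled point is 1 library (n = 2 per group) and the open diamond is Control replicate 2 as given in the series table. Lgr5 and Dclk1 lie lower in all 4 irradiated libraries than in both Control libraries. For Lyz1 and Defa24 the filled points of the Control libraries lie about 3-fold apart.

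Most markers of stroma, nerves and neutrophils were at or near 0, while those of some other cells were detected. Of 15 genes of fibroblasts and smooth muscle only Vim reached 1 FPKM in both Control libraries (2.88 and 3.78 FPKM), and Myh11, Lum and Cnn1 were listed at 0. Of 9 neutrophil genes 8 were listed at 0 in both, and of 10 genes of enteric neurons and glia none reached 1 FPKM, with Sox10 listed at 0. Among 11 endothelial genes Esam alone reached 1 FPKM in both (1.48 and 1.97 FPKM). T cell and intraepithelial lymphocyte genes were present, with 10 of 13 at 1 FPKM or more in both: Ccl5, a chemokine, had 46.9 and 83.1 FPKM, Gzma, a granzyme, had 53.3 and 75.3 FPKM, and Cd3e, a chain of the T cell receptor complex, had 2.45 and 3.71 FPKM. The B cell genes Cd79a (0.0346 and 1.66 FPKM) and Ms4a1 (0.0464 and 0.518 FPKM) and the haemoglobin gene Hbb-bs (2.54 and 13.1 FPKM) were higher in replicate 3. Of 14 macrophage and dendritic cell genes, Tyrobp (3.40 and 4.71 FPKM) and Fcer1g (2.43 and 3.39 FPKM) reached 1 FPKM in both, and of 7 mast cell genes Mcpt1 (1.98 and 5.59 FPKM) and Kit (2.34 and 2.69 FPKM) did. Clps, pancreatic colipase, had 98.5 and 410 FPKM, while the acinar enzyme gene Amy2a5 was listed at 0 and Cpa1 was at 0 in replicate 2 and 0.709 FPKM in replicate 3. Which cells made the Clps transcript cannot be told in these bulk libraries.

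**Figure D3:**
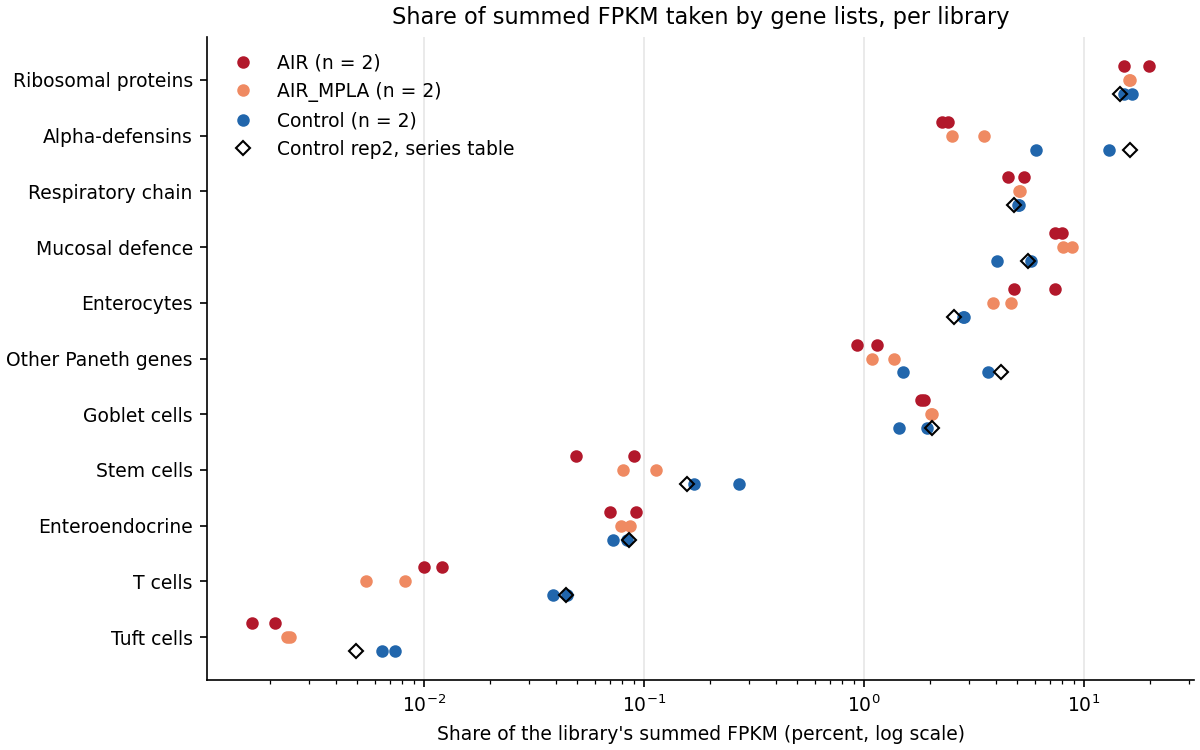
Share of summed FPKM per library (horizontal axis, percent, log scale) taken by 11 gene lists; points are AIR, AIR_MPLA and Control libraries (n = 2 each) and the diamond is Control replicate 2 as given in the series table. Alpha-defensins took 2.28% to 3.53% in the irradiated libraries and 6.04% and 13.0% in Control, whereas ribosomal proteins took 15.2% to 19.8% in the irradiated libraries and 16.6% and 15.3% in Control.

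Toll-like receptor 4, the target of MPLA, was close to absent from the resting crypt profile. Tlr4 was at 0.0169 FPKM in Control replicate 2 and 0.0116 FPKM in replicate 3, and it was listed at 0 in the table column for replicate 2. It was at 0.240 and 0.123 FPKM in AIR libraries and at 0.00622 and 0.0147 FPKM in AIR_MPLA libraries. Of 22 genes of Toll-like receptors and lipopolysaccharide recognition, 11 reached 1 FPKM in both Control libraries. The co-receptors Cd14 (7.31 and 9.88 FPKM) and Ly96 (5.51 and 4.05 FPKM) were present, as were the adaptors Myd88 (15.2 and 18.1 FPKM) and Ticam1 (15.2 and 21.1 FPKM). Among the receptors themselves Tlr3 (4.97 and 3.04 FPKM), Tlr1 (4.34 and 4.33 FPKM) and Tlr2 (1.34 and 1.76 FPKM) reached 1 FPKM. The interferon list, which holds stimulated genes and receptor subunits, had 18 of 20 members at 1 FPKM or more in both Control libraries, led by Ifi27l2b at 86.8 and 114 FPKM. Isg15, a ubiquitin-like modifier, was at 10.2 and 33.4 FPKM, while Ifit3 was at 0.746 and 0.990 FPKM.

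Paneth cell genes were among those that differed most between replicate 3 and the single-sample file of replicate 2. Of 10354 genes compared, 91.3% were within 2-fold of each other, 244 were at least 2-fold higher in replicate 3 and 659 were at least 2-fold lower in replicate 3. Of the 28 alpha-defensin genes 26 were higher in replicate 3, and the members at 1 FPKM or more had a median ratio of replicate 3 to replicate 2 of 3.05. For the other Paneth genes that median ratio was 3.11 (14 of 16 higher), for goblet cell genes 1.53, for ribosomal protein genes 1.17, for stem cell genes 1.04 and for all genes 0.999. Lists with 2 members each at 1 FPKM or more also had high median ratios, namely erythrocytes (5.87), pancreatic acinar cells (2.82) and B and plasma cells (2.18). With 1 library on each side these ratios have no test. Against the table column for replicate 2, 99.6% of 10104 genes in replicate 3 were within 2-fold. In that column 23 genes were at least 2-fold higher than in replicate 3 and 20 were at least 2-fold lower. Alpha-defensins summed to 81615 FPKM in the table column and 63913 FPKM in replicate 3, and other Paneth genes to 21319 and 18074 FPKM.

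The 5 genes with the largest ratio among the 1237 genes at a mean of 50 FPKM or more were all secretory genes of Paneth cells. Defa2 was at 433 FPKM in replicate 3 and 40.5 FPKM in replicate 2, Defa32 at 206 and 25.9 FPKM, and Mptx2, a mucosal pentraxin, at 1606 and 253 FPKM. Ang4, an antimicrobial ribonuclease, was at 1257 FPKM in replicate 3 and 205 FPKM in replicate 2, and Defa37 at 759 and 163 FPKM. In the other direction the largest were Mt2, a metallothionein (67.3 FPKM in replicate 3 and 327 FPKM in replicate 2), Ivns1abp (81.6 and 202 FPKM), Tfrc, the transferrin receptor (53.6 and 127 FPKM), Sult1d1, a sulfotransferase (36.6 and 83.7 FPKM), and Hpgd, which degrades prostaglandins (40.5 and 90.7 FPKM). In the table column for replicate 2, Defa2 was at 647 FPKM, Defa32 at 341 FPKM, Mptx2 at 1806 FPKM, Ang4 at 1571 FPKM and Defa37 at 1550 FPKM, all above replicate 3. Mt2 was at 84.9 FPKM there, closer to replicate 3 than to the single-sample file.

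**Figure D4:**
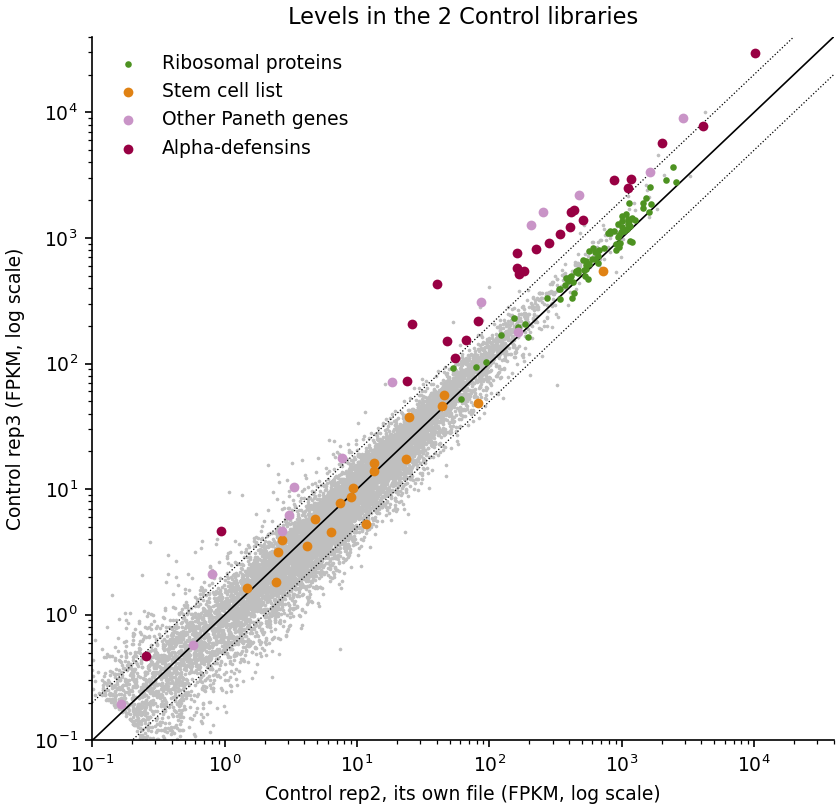
FPKM in Control replicate 3 (vertical axis) against Control replicate 2 from its own file (horizontal axis), both on log scales; each grey point is a gene, coloured points are the listed groups, the solid line marks equal levels and the dotted lines 2-fold differences. Most Paneth cell genes lie above the upper dotted line, and ribosomal protein genes lie near the solid line.

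Base composition moved with the difference between the Control libraries. Of the 10415 genes at 1 FPKM or more in at least 2 libraries, 10094 (96.9%) had an annotated transcript. Across these genes, which are not independent, the log2 ratio of replicate 3 to replicate 2 had a Spearman correlation of 0.603 with the GC content of the longest transcript and -0.462 with its length. When the genes were split by GC content into 5 equal groups, the median log2 ratio was -0.48 in the lowest group (up to 43.9%) and 0.26 in the highest (from 55.4%). The table column for replicate 2 against replicate 3 gave a Spearman correlation of 0.253, with medians of -0.08 and 0.01 in the same groups. Alpha-defensins, with their median ratio of 3.05, had a median GC content of 49.9%. Stem cell genes had a median GC content of 49.6% and a median log2 ratio of 0.05 on the same scale. The part of base composition in the differences of single genes was not tested.

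**Figure D5:**
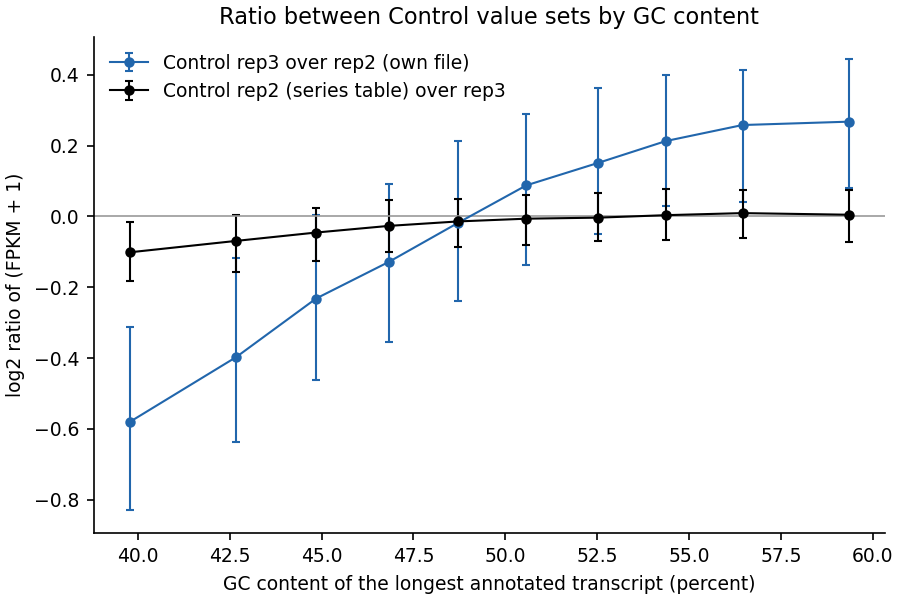
Median log2 ratio of (FPKM + 1) between Control value sets (vertical axis, bars from the lower to the upper quartile of genes) in 10 bins of GC content of the longest annotated transcript (horizontal axis, percent). The ratio of replicate 3 to replicate 2 from its own file climbs with GC content from -0.58 to 0.27, while the ratio of the table column for replicate 2 to replicate 3 stays between -0.10 and 0.01.

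The promoters were read for 1 simple feature, and no difference between lists was tested. The motif TATAAA was searched on the gene's strand from 40 to 20 bases before the start, in RefSeq windows of GRCm38.p6. It was present in 529 of 17267 genes with a window (3.06%), in 133 of 7977 genes at 1 FPKM or more in both Control libraries (1.67%) and in 9 of the 76 highest 100 genes that had a window (11.8%). Alpha-defensins had it in 7 of 16 windows (43.8%), the mucosal defence list in 4 of 18 (22.2%), the stem cell list in 2 of 12 (16.7%) and enterocytes in 3 of 24 (12.5%). Only 16 of the 28 alpha-defensin genes had a window, and as near copies of each other they do not count as separate observations. Paneth genes outside the defensins had it in 1 of 14 windows (7.14%), goblet genes in 0 of 9 and ribosomal protein genes in 0 of 59. Anywhere in the window and on either strand, the motif was in 14.7% of all genes and 30.3% of the highest 100. The last 100 bases before the start and the first base of the transcript are shown for the highest lectin gene (chr6:78370785-78370885, plus strand), for Lyz1 (chr10:117292868-117292968, minus strand) and for the highest ribosomal protein gene (chr10:128549168-128549268, minus strand), with TATAAA in capitals; in Reg3b it begins 29 bases before the start, and these letters are not in the Lyz1 and Rpl41 stretches.
Reg3b: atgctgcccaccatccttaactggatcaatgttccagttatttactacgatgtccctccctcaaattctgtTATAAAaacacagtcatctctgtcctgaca
Lyz1: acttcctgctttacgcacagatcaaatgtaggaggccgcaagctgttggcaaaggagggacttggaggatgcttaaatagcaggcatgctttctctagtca
Rpl41: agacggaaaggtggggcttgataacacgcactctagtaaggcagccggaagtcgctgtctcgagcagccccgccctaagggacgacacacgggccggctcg

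The irradiated crypts were set beside the Control crypts to show where the resting levels of the markers lay. Of 10415 genes tested by limma on log2(FPKM + 1), AIR differed from Control in 838 higher (8.05%) and 1948 lower (18.7%) genes, and AIR_MPLA differed from Control in 67 higher (0.643%) and 87 lower (0.835%) genes at a Benjamini-Hochberg adjusted p under 0.05. Both comparisons use the same Control libraries. Median-ratio scaling moved the median log2 fold of all genes in AIR from -0.13 to 0.03 and gave 1238 higher and 1121 lower genes. The AIR count of 2786 was 6473 with the table column for Control replicate 2. It was 124 without AIR replicate 1, 933 without AIR replicate 3, 1438 and 1436 without AIR_MPLA replicates 1 and 3, and 4329 without Control replicate 2. The AIR_MPLA count of 154 was 1059 with the table column, 45 and 41 without AIR replicates 1 and 3, 13 and 29 without AIR_MPLA replicates 1 and 3, 238 without Control replicate 2 and 1645 without Control replicate 3. Across genes, the log2 ratio to Control replicate 3 had Spearman correlations with GC content of -0.518 and -0.583 for AIR replicates 1 and 3 and of -0.157 and 0.152 for AIR_MPLA replicates 1 and 3, and the part of GC content in these counts was not tested.

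Stem cell and tuft cell markers stood higher at rest than after irradiation. Lgr5 had 0.266 and 0.269 FPKM in AIR libraries, 1.01 and 0.577 FPKM in AIR_MPLA libraries, and 4.22 and 3.56 FPKM in Control libraries. The groups did not overlap, and Lgr5 fell in AIR (log2 fold -1.94, SE 0.18, limma adjusted p = 0.00453) and in AIR_MPLA (-1.46, SE 0.18, limma adjusted p = 0.0204). Dclk1 had 0.0745 and 0.0613 FPKM in AIR, 0.143 and 0.109 FPKM in AIR_MPLA, and 1.32 and 1.19 FPKM in Control. It too fell in both groups (log2 fold -1.08 in AIR, limma adjusted p = 0.00755; limma adjusted p = 0.0309 in AIR_MPLA). Without AIR replicate 1 Lgr5 kept its call in AIR (limma adjusted p = 0.0465) and Dclk1 lost it (limma adjusted p = 0.0575). In AIR_MPLA, leaving out either AIR_MPLA library or either AIR library put both above 0.05, with adjusted p-values of 0.0589 to 0.125 for Lgr5 and 0.0714 to 0.229 for Dclk1.

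Olfm4 had 91.0 and 245 FPKM in AIR libraries, 303 and 200 FPKM in AIR_MPLA libraries, and 723 and 542 FPKM in Control libraries. All 4 irradiated libraries lay below both Control libraries, and Olfm4 fell in AIR (log2 fold -2.06, SE 0.46, limma adjusted p = 0.0212). In AIR_MPLA the log2 fold was -1.35 (SE 0.46, limma adjusted p = 0.221). The AIR call was lost without AIR replicate 1 (limma adjusted p = 0.0749), without Control replicate 2 (0.119) or 3 (0.105), and when no filter was applied (0.0570).

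The Paneth markers spread about 3-fold between the single-sample files of the Control libraries. Defa24 had 4725 and 5452 FPKM in AIR libraries, 7617 and 5314 FPKM in AIR_MPLA libraries, and 10144 and 29539 FPKM in Control libraries. It fell in AIR (log2 fold -1.77, SE 0.50, limma adjusted p = 0.0402), and in AIR_MPLA it had a log2 fold of -1.44 (limma adjusted p = 0.227). Lyz1 had 1341 and 1556 FPKM in AIR, 2575 and 1919 FPKM in AIR_MPLA, and 2890 and 9079 FPKM in Control, with log2 folds of -1.83 (limma adjusted p = 0.0384) and -1.20 (limma adjusted p = 0.306). The lowest Control library lay above all irradiated libraries for both genes. With the table column for Control replicate 2 the adjusted p-values of Defa24 were 0.000164 in AIR and 0.00177 in AIR_MPLA, and those of Lyz1 were 9.55e-05 and 0.00113. In AIR both calls were lost without AIR replicate 1 (limma adjusted p = 0.155 for each), without AIR replicate 3 (0.123 for each) and without either AIR_MPLA library (0.0586 to 0.0642). They were also lost under median-ratio scaling (0.0621 for Defa24 and 0.0582 for Lyz1) and with no filter (0.0869 and 0.0867). Without Control replicate 3 Defa24 lost its call (0.0767) and Lyz1 kept it (0.0459), and without Control replicate 2 both passed in AIR_MPLA as well (0.0236 for Defa24 and 0.0161 for Lyz1). Despite these differences in level, Defa24 was 3.52 and 3.50 times Lyz1 in AIR, 2.96 and 2.77 times in AIR_MPLA, and 3.51 and 3.25 times in Control.

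The remaining markers moved otherwise. Fabp2 had 2361 and 2255 FPKM in AIR libraries, 789 and 940 FPKM in AIR_MPLA libraries, and 980 and 701 FPKM in Control libraries. Both AIR libraries lay above Control, and Fabp2 rose in AIR (log2 fold 1.48, SE 0.24, limma adjusted p = 0.0103), a call lost without AIR replicate 1 (limma adjusted p = 0.0633). In AIR_MPLA its range overlapped Control. Muc2 had 29.5 and 19.1 FPKM in AIR, 58.8 and 60.2 FPKM in AIR_MPLA, and 43.2 and 35.6 FPKM in Control, with log2 folds of -0.70 (limma adjusted p = 0.0565) and 0.59 (limma adjusted p = 0.262). With the table column for Control replicate 2, Muc2 passed as lower in AIR (log2 fold -0.59, limma adjusted p = 0.0245). Chga had 24.6 and 19.5 FPKM in AIR, 34.7 and 38.3 FPKM in AIR_MPLA, and 28.9 and 26.5 FPKM in Control, and did not pass in either comparison (limma adjusted p = 0.183 and 0.323). For Muc2 and Chga the AIR libraries lay below Control and the AIR_MPLA libraries above it.

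Whole lists are read against the 18.7% of all tested genes that were lower in AIR. Of 19 stem cell genes 16 were lower in AIR (median log2 fold -1.17, against -0.13 for all genes), of 30 proliferation genes 18 were (median -0.92), and of 25 tested alpha-defensins 16 were (median -2.13). Of 10 tested tuft genes 9 were lower (median -1.09), and of 10 tested T cell genes 9 were (median -1.36). Tuft genes such as Dclk1 and Alox5ap passed the filter only through the Control libraries. Genes of these lists that passed included Axin2 (log2 fold -1.78, limma adjusted p = 0.00546), Mcm2 (-1.35, limma adjusted p = 0.00538) and Ccl5 (-2.24, limma adjusted p = 0.00733). Axin2 and Mcm2 kept their calls under all alternatives run, and Ccl5 lost its call without AIR replicate 1. Without AIR replicate 1 the counts were 3 stem cell genes, 2 proliferation genes, 0 alpha-defensins, 3 tuft genes and 0 T cell genes, and without AIR replicate 3 they were 11, 11, 7, 6 and 7. With the table column for Control replicate 2 all 25 tested alpha-defensins were lower. Of 12 tested Paneth genes outside the defensins 4 were lower (median -0.73), with 0 when either AIR library or either AIR_MPLA library was left out, 8 without Control replicate 2, 0 under median-ratio scaling and 11 with the table column.

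In AIR_MPLA, where 0.835% of all tested genes were lower, the tuft list had 6 of 10 lower (median log2 fold -1.12, against -0.03 for all genes) and the T cell list 9 of 10 (median -1.82). Alox5ap, with 0.763 and 0.835 FPKM in AIR_MPLA and 4.76 and 6.55 FPKM in Control, had a log2 fold of -1.87 (limma adjusted p = 0.0154). Like Dclk1, it passed the filter only through the Control libraries. Gzma, with 9.22 and 12.0 FPKM in AIR_MPLA and 53.3 and 75.3 FPKM in Control, fell (log2 fold -2.48, limma adjusted p = 0.0157). Without AIR_MPLA replicate 1 the calls of Alox5ap and Gzma were lost, and Gzma also lost its call with no filter (limma adjusted p = 0.0519). Of the stem cell list Lgr5 alone passed, and of the alpha-defensins 2 did, Gm15292 and Gm7861. Without AIR_MPLA replicate 1 the tuft count was 1 and the T cell count 0, without AIR_MPLA replicate 3 they were 2 and 6, and without either AIR library 2 and 1. None of the stem cell genes or alpha-defensins passed without any 1 of those 4 libraries. There were 18 alpha-defensins lower without Control replicate 2 and 9 without Control replicate 3, where 3 stem cell genes were lower. With the table column for Control replicate 2 there were 23 alpha-defensins and 9 stem cell genes lower.

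Of the 80 ribosomal protein genes none passed in limma in either direction, in AIR (median log2 fold 0.04) or in AIR_MPLA (median 0.05), and at an unadjusted p under 0.05 there were 2 in AIR, 1 higher and 1 lower, and 0 in AIR_MPLA. In the table column for Control replicate 2 the AIR comparison gave 7 higher and 9 lower. A p that misses the threshold does not show equal levels. Of 30 enterocyte genes 6 were higher in AIR, where 8.05% of all tested genes were, and 3 were lower. Among these, Lct fell (log2 fold -3.08, limma adjusted p = 0.00453), a call kept under all alternatives run. Of 25 tested intestinal transcription factor genes 11 were lower and 3 higher in AIR (median -0.41), with 0 in both directions without AIR replicate 1, 6 lower without AIR replicate 3 and 18 lower with the table column. Of the 20 members of the interferon list 9 were higher and 1 lower in AIR (median 1.14), with 0 higher without AIR replicate 1, 6 without AIR replicate 3 and 2 without either Control library.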

How the data were processed

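The authors' deposited values were FPKM per gene, held in single-sample files, where a column header calls them counts, and in a table of all libraries. The submitters' processing notes name Trimmomatic, HISAT2, Cufflinks, HTSeq and the build GRCm38.p6. Which tool did what, in which version, and whether strand was used is not stated, and overlapping or antisense genes cannot be told apart. Read depth is unknown, and no counting intervals could be computed. A RefSeq gene table, matched by ID, gave coordinates for 21727 of 21878 genes, and 27 symbols turned into dates were restored.

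The main values come from the samples' own files, with the series-table column of Control replicate 2 as an alternative; groups and replicate numbers come from the titles. The table columns of Control carry an abbreviation and were matched by replicate number; that of replicate 3 equals its single-sample file. Levels are described by FPKM, rank and share of summed FPKM. The plan named a count test if the files held counts; as they hold FPKM, limma 3.58.1 (R 4.3.3) was fitted on log2(FPKM + 1), which understates the change of low genes, with a mean for each group across all 6 libraries and robust, trended moderation of the variances. Genes at 1 FPKM or more in at least 2 libraries were tested (10415), adjusted by Benjamini-Hochberg at 0.05. The steps were tested on simulated data. Python 3.11.15, pandas 2.3.3, numpy 2.4.6 and matplotlib 3.10.9 made the tables and figures. Other settings were a pseudocount of 0.1, no filter, a filter of 5 FPKM, median-ratio scaling, only the 4 libraries compared, and each library left out in turn; where that left 1 library in a group, its variance was assumed equal to that of the other groups.

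The 33 gene lists (619 symbols, 614 in the files) and the members were chosen with earlier results of these data known. By the rule for named genes these were the 8 markers, the 30 highest genes, up to 4 of each list and its defining markers at or near 0, the 5 largest ratios between the Control libraries in each direction at a mean of 50 FPKM or more, up to 2 of each list per direction with the smallest p, and Tlr4. Atoh1, Cck, Cd14, Cd3e, Gata4, Isg15, Ly96, Mcm4, Mcm5, Mki67, Nos2, Rpl21, Rps15a, Sis, Spdef, Tlr2, Tlr3 and Wnt3 fall outside that rule and were chosen after their values were seen.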

Additional observations from a re-analysis of the deposited data

How the results depend on the processing

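Resting levels moved with the values used for Control replicate 2 and with the genes in the total. The share of FPKM in the 100 highest genes was 38.2% (mean of the Control libraries) and 31.6% with totals without alpha-defensins, ribosomal proteins and haemoglobins; leaving out 1 Control library gave 34.1% to 42.4%. The alpha-defensin share was 9.51%, 14.6% with the series-table values, and 6.04% to 13.0% with 1 Control library left out. The stem cell share was 0.220%, 0.293% with the reduced totals, and 0.170% to 0.271% with 1 Control library left out. With a threshold of 5 FPKM, 6436 genes were reached in both Control libraries in place of 9816, and leaving out 1 Control library gave 9997 to 10179. Of AIR against Control (2786 genes), the series-table values gave 6473, only the 4 libraries compared 1427, and leaving out 1 library 124 to 4329. Of AIR_MPLA against Control (154), they gave 1059 and 43, no filter 73, a filter of 5 FPKM 57, and leaving out 1 library 13 to 1645. The cause of these differences was not tested. Fabp2 in AIR_MPLA against Control, which did not pass, turned from a log2 fold of 0.05 to -0.07 without AIR_MPLA replicate 3 and -0.19 without Control replicate 3, within a range of -0.19 to 0.30 over the libraries left out. With 2 libraries per group and no read depth, small differences were not detectable. Of 67 named calls in AIR, 56 were lost without AIR replicate 1, and of 17 in AIR_MPLA, 16 were lost without AIR_MPLA replicate 1. No paired analysis was possible because Control shares only replicate number 3 with AIR and AIR_MPLA, which leaves no second pair, and the labels tie the number to no batch.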

Other observations

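Values outside the comparisons are given here without explanation, and the genes were picked after their values were seen. Gapdh, a glycolytic enzyme gene often used as a reference, was at 3.20 and 3.01 FPKM in AIR replicates 1 and 3, 2.69 and 3.79 FPKM in AIR_MPLA replicates 1 and 3, and 1.91 and 2.42 FPKM in Control replicates 2 and 3. Ldha, lactate dehydrogenase, was at 606 and 931 FPKM in Control.

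The Y-linked genes Eif2s3y (16.6 and 7.21 FPKM), Ddx3y (8.03 and 2.16 FPKM), Kdm5d (4.44 and 2.94 FPKM) and Uty (2.53 and 1.04 FPKM) were all above 1 FPKM in both Control libraries and lower in replicate 3. Their median GC content was 36.2%, and the lowest GC group of all genes (up to 43.9%) had a median log2 ratio of -0.48. Eif2s3y was at 27.8 and 33.3 FPKM in AIR and at 9.77 and 7.60 FPKM in AIR_MPLA. The cause of these differences between libraries was not tested. Immediate early genes were at moderate level at rest, with Fos at 10.2 and 15.5 FPKM and Jun at 11.1 and 14.6 FPKM. Of the clock genes, Nr1d1 had 13.4 and 23.8 FPKM in Control replicates 2 and 3 and Arntl 1.32 and 0.937 FPKM. Dbp, a clock output gene, had 1.77 and 2.25 FPKM in AIR, 3.02 and 2.68 FPKM in AIR_MPLA, and 11.2 and 15.7 FPKM in Control; it fell in AIR (log2 fold -2.25, SE 0.20, limma adjusted p = 0.00453) and in AIR_MPLA (-1.89, limma adjusted p = 0.0157). The AIR call was kept under all alternatives run, and the AIR_MPLA call was lost without AIR_MPLA replicate 1 (limma adjusted p = 0.0589) or replicate 3 (0.0688).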
